A study of Nicotiana tabacum with 20 samples.

Results

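Leaf RNA of 1 transgenic tobacco line was compared across a selfing: 4 libraries of hairpin line 1 in the T2 generation (HP1_T2) against 4 of the same line in the T1 generation (HP1_T1), 8 of the 20 libraries of the series. All libraries of both generations were taken, with no choice by measured value, and every feature of the count table entered. Both groups carried the same construct: a 35S promoter, a fragment of the Tnt1 reverse transcriptase in sense and antisense order around an intron, an OCS terminator, hygromycin resistance and the reporter gene GUS. The labels describe HP1_T1 as regenerants from transformation and HP1_T2 as the product of self-pollinating HP1_T1. Generation and the route by which the plants arose therefore cannot be told apart. HP1 is a single line. Nothing in the labels says that the 4 libraries of a generation were made from different plants, and a p-value then measures only how far these libraries spread, which may be technical. The 45-day-old plants grew in vitro with antibiotic, under 14 h of light at 24 °C. Wild-type plants (WT), hairpin line 8 in the T1 generation (HP8_T1) and plants with the empty vector (C), 4 libraries each, are given beside them. WT and HP8_T1 also entered the fit across features and the abundance ranks. HP8_T1 carries the same kind of construct as line 1, and C carries the 35S promoter, intron, terminator and hygromycin resistance without the Tnt1 fragments or GUS.

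Tnt1 is a copy-and-paste retrotransposon of tobacco: it is transcribed to RNA, reverse transcribed by its own enzyme and inserted elsewhere in the genome. It is usually quiet in leaves and is known to respond to stress and to tissue culture. A hairpin RNA is cut by the plant's Dicer enzymes into small RNAs that direct RNA silencing against matching sequences. Selfing lets a transgene segregate, and silencing states can pass to the progeny or change in it. The series asked how far gene expression shifts when control of the retrotransposon is altered, and the pair of generations shows how the leaf RNA of a hairpin line differs after a selfing.

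The count table lists 24069 UniGene sequences, called features here. Their identifiers come without gene names, and 0 of them matched among 79372 genes of the RefSeq table for tobacco. Tnt1, the transgene and leaf markers could therefore not be found in the table, and neither the hairpin nor the leaf label was checked by its genes. Features are described by their abundance rank and length. Ranks go by the mean read share over the 16 libraries of WT, HP8_T1, HP1_T1 and HP1_T2. They are not corrected for length, so they order features by reads and not by molecules.

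Each HP1_T1 library held 1994983 to 2805529 total gene reads and each HP1_T2 library 1958952 to 2436863. The most abundant feature, of 625 bases, took 79.6%, 78.9%, 75.5% and 77.4% of them in HP1_T1 replicates 1 to 4 and 80.7%, 79.7%, 76.0% and 78.2% in HP1_T2. The generations overlapped in this share, with a mean difference of 0.787 percentage points (two-sided exact permutation test, p = 0.571). Leaving out 1 library moved the difference to between −0.00323 (without HP1_T1 replicate 3) and 1.67 (without HP1_T2 replicate 3). The order of the replicates in this share was 1, 2, 4, 3 from high to low in both generations, and also in WT and HP8_T1. Between libraries of the same number HP1_T2 was higher by 0.504 to 1.08 percentage points in 4 of 4 (two-sided exact paired permutation test, p = 0.125, the smallest 4 pairs allow), so the test across all libraries does not show that the share was the same. The edgeR quasi-likelihood fit with TMM scaling, a scaling on the bulk of features, called the feature higher in HP1_T2. Its log2 change was 0.39 (SE 0.05, edgeR adjusted p = 1.59e-09), and 4 of the 6 scalings tried called it higher. The remaining reads, those outside this feature, numbered 406165 to 629063 per library in HP1_T1 and 418585 to 495156 in HP1_T2. The precision of every other value rests on them. In bulk leaf RNA, a lower share of a feature can come from fewer cells of a type or from less RNA per cell, and these cannot be told apart.

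The remaining reads were held by far fewer features in the T2 generation. In HP1_T1, 62, 63, 57 and 60 features together held 50% of the remaining reads in replicates 1 to 4; in HP1_T2 it was 14, 14, 12 and 13 features. The mean number of features was 60.5 ± 2.65 for HP1_T1 against 13.3 ± 0.957 for HP1_T2 (SD, n = 4 each), without overlap. To hold 90% of the remaining reads took 5012 ± 47.6 features in HP1_T1 and 3905 ± 20.9 in HP1_T2. Both differences had p = 0.0286 in a two-sided exact permutation test, the smallest that 4 libraries against 4 allow, and 0.0429 after Benjamini-Hochberg adjustment over 3 measures. Within replicate numbers, a two-sided exact paired permutation test gave p = 0.125 for both, the smallest 4 pairs allow. For orientation, 6.50 ± 0.577 features held 50% in WT and 16.5 ± 1.29 in HP8_T1.

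Sorted into 5 classes of abundance, only the class of the 9 features ranked 2 to 10 gained reads, and each of the other 4 classes lost them. The classes are ranks 2 to 10, ranks 11 to 100, ranks past 100 up to 1000 (called the middle ranks here), ranks past 1000 up to 5000 (the lower ranks) and all features beyond rank 5000. Ranks 2 to 10 summed to 37.2% ± 0.345 of the remaining reads in HP1_T1 and 47.5% ± 0.444 in HP1_T2, a gain of 10.3 percentage points. Ranks 11 to 100 went from 14.9% ± 0.143 to 14.0% ± 0.0471. The middle ranks went from 18.6% ± 0.128 to 15.4% ± 0.161, and the lower ranks from 18.2% ± 0.110 to 14.5% ± 0.176. Features beyond rank 5000 went from 11.1% ± 0.0208 to 8.63% ± 0.0766 (SD, n = 4 each). In all 5 classes the libraries of the generations did not overlap (two-sided exact permutation test, p = 0.0286 each, 0.0286 after Benjamini-Hochberg adjustment over the 5 classes). Within replicate numbers, a two-sided exact paired permutation test gave p = 0.125 for each class, the smallest 4 pairs allow. The proportional loss grew with rank: the HP1_T2 share was 0.936 of the HP1_T1 share for ranks 11 to 100, 0.828 for the middle ranks, 0.796 for the lower ranks and 0.778 beyond rank 5000. These sums use all features, without a filter on low counts.

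**Figure D1:**
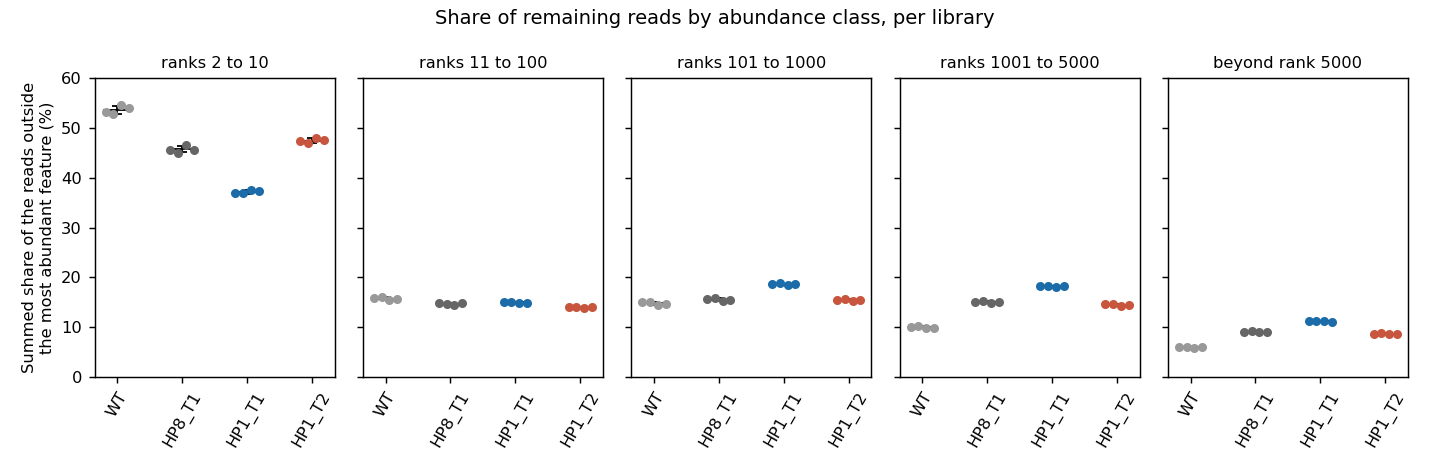
Summed share of the reads outside the most abundant feature (y axis, %) for 5 abundance classes (panels) in WT, HP8_T1, HP1_T1 and HP1_T2; points are libraries, and bars are the mean and SD (n = 4). Ranks 2 to 10 rise from about 37.2% in HP1_T1 to 47.5% in HP1_T2, while the points of HP1_T2 lie below those of HP1_T1 in the other 4 panels.

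Shares are bound to sum to 100%, and a single feature can move them all. With the feature ranked 2 also taken out of the total, ranks 3 to 10 still gained, from 20.3% ± 0.329 of the reads outside the 2 most abundant features in HP1_T1 to 26.1% ± 0.364 in HP1_T2. Ranks 11 to 100 then turned direction, from 18.9% ± 0.100 to 19.7% ± 0.208. The later classes stayed lower in HP1_T2: 23.6% ± 0.0647 against 21.7% ± 0.0855 for the middle ranks, 23.1% ± 0.149 against 20.4% ± 0.0746 for the lower ranks, and 14.1% ± 0.120 against 12.2% ± 0.0570 beyond rank 5000 (SD, n = 4 each; two-sided exact permutation p = 0.0286 in each class). The gain at the head and the loss beyond rank 100 thus did not rest on the feature ranked 2 alone, whereas the direction for ranks 11 to 100 did.

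The feature ranked 2, of 868 bases, made up most of the gain at the head. It took 20.8%, 20.3%, 21.9% and 21.5% of the remaining reads in HP1_T1 replicates 1 to 4 and 28.6%, 27.9%, 30.01% and 29.4% in HP1_T2. All HP1_T2 libraries lay above all HP1_T1 libraries. Its mean was 38.3% ± 1.32 in WT and 31.5% ± 0.915 in HP8_T1 (SD, n = 4), so HP1_T1 was the lowest of these 4 groups. The edgeR quasi-likelihood fit with TMM scaling, a scaling on the bulk of features, put the log2 rise from HP1_T1 to HP1_T2 at 0.78 (SE 0.04, adjusted p = 1.09e-26).

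The features ranked 6, of 887 bases, and 7, of 544 bases, had the largest proportional gains among ranks 2 to 10. Rank 6 took 0.878%, 0.925%, 0.852% and 0.861% of the remaining reads in the HP1_T1 libraries and 1.56%, 1.59%, 1.44% and 1.39% in the HP1_T2 libraries, 1.70 times as much on average. Rank 7 took 0.741%, 0.791%, 0.780% and 0.722% against 1.20%, 1.24%, 1.23% and 1.11%, 1.58 times as much. Neither feature overlapped between the generations. The fitted log2 differences were 1.09 (SE 0.06) for rank 6 and 0.98 (SE 0.06) for rank 7, with edgeR adjusted p-values of 2.95e-28 and 5.71e-26.

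Rank 3, of 855 bases, held 3.59% ± 0.169 of the remaining reads in HP1_T1 and 1.39 times as much in HP1_T2. Rank 10, of 540 bases, rose from 0.794% ± 0.0400 to 1.08% ± 0.0765. Rank 4, of 554 bases, went from 3.94% ± 0.130 to 4.35% ± 0.173 and rank 9, of 866 bases, from 0.952% ± 0.0409 to 1.06% ± 0.0539 (SD, n = 4 each). The libraries did not overlap for any of these 4. Of the 99 features ranked 2 to 100, 31.3% had a share higher in HP1_T2 without overlap and 38.4% a lower one. Among tested features beyond rank 100 this was 6.69% and 28.1%.

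The head of the distribution did not move as a block. The feature ranked 5, of 543 bases, took 4.15%, 4.27%, 4.06% and 4.24% of the remaining reads in HP1_T1 and 3.38%, 3.40%, 3.37% and 3.61% in HP1_T2. Its share was lower in all HP1_T2 libraries. In WT it held only 1.31% ± 0.112 (SD, n = 4) and in HP8_T1 2.20% ± 0.0563. The TMM fit put its log2 change at 0.04 with an SE of 0.05 (edgeR adjusted p = 0.610), and it was called lower under 2 of the 6 scalings tried. The feature ranked 8, of 912 bases, overlapped between the generations, with 0.953% ± 0.0383 in HP1_T1 and 0.891% ± 0.0239 in HP1_T2. The TMM fit called it higher, with a log2 change of 0.22 (SE 0.06, edgeR adjusted p = 0.000933), and 4 of the 6 scalings did so, while its mean share was lower.

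**Figure D2:**
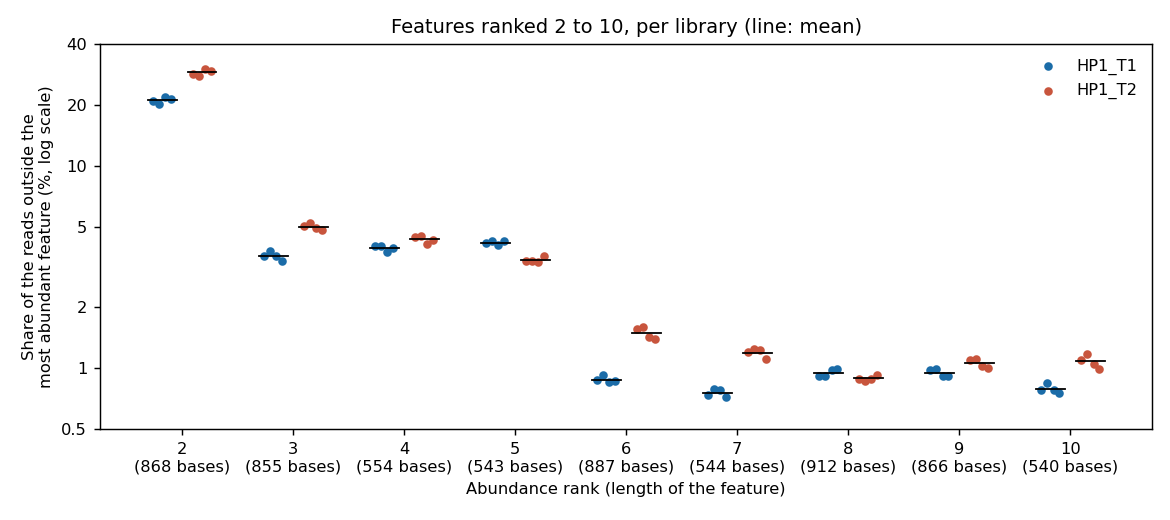
Share of the reads outside the most abundant feature (y axis, %, log scale) for the 9 features ranked 2 to 10 (x axis, with lengths) in each HP1_T1 and HP1_T2 library; lines are group means (n = 4). The HP1_T2 points lie above those of HP1_T1 for ranks 2, 3, 4, 6, 7, 9 and 10, below them for rank 5, and overlap them for rank 8.

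The next 10 features moved both ways, and the 4 given here were chosen after their values were seen. The feature ranked 13, of 535 bases, took 0.837%, 0.831%, 0.698% and 0.724% of the remaining reads in HP1_T1 replicates 1 to 4 and 0.448%, 0.442%, 0.386% and 0.389% in HP1_T2. It was lower in all HP1_T2 libraries and called lower under all 6 scalings. The feature ranked 18, of 533 bases, took 0.180%, 0.149%, 0.294% and 0.347% in HP1_T1 and 0.324%, 0.254%, 0.483% and 0.524% in HP1_T2. Its generations overlapped, since replicates 3 and 4 were above replicates 1 and 2 in both, and also in WT and HP8_T1. It was called higher under all 6 scalings. Rank 12, of 852 bases, went from 0.674% ± 0.0419 to 0.512% ± 0.0330, and rank 14, of 597 bases, from 0.557% ± 0.0319 to 0.664% ± 0.00552 (SD, n = 4 each). With TMM, rank 12 had a log2 change of only −0.08 (edgeR adjusted p = 0.322), and it was called lower under 2 of the 6 scalings. Rank 14 was called higher under 5 of the 6.

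Across the table, 2471 of 7052 tested features differed between the generations, 35% of those tested, with 1234 higher and 1237 lower in HP1_T2 (edgeR quasi-likelihood test, Benjamini-Hochberg adjusted p below 0.05; 17.5% in each direction). The calls were not spread evenly over abundance. Among ranks 2 to 10, 8 of 9 features were higher and 0 lower (8 and 0 also at an unadjusted p below 0.05 and by DESeq2). Among ranks 11 to 100, 48 of 90 were higher (53.3%) and 15 lower (16.7%). Among the middle ranks, 261 of 900 were higher (29.0%) and 199 lower (22.1%). The directions were near balance for the lower ranks, with 639 higher (15.98%) and 660 lower (16.5%) of 4000. Beyond rank 5000, 277 were higher (13.5%) and 363 lower (17.7%) of the 2052 tested.

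The class beyond rank 5000 holds 19069 features, and only these 2052 passed the filter on low counts. A feature may have passed only through the group in which it was high and so had to differ, and the counts for this class are a description of the tested features only. The share of features called also follows precision: the median SE of the log2 change was 0.06 for ranks 2 to 10, 0.08 for ranks 11 to 100, 0.14 for the middle ranks, 0.28 for the lower ranks and 0.41 beyond rank 5000. The median feature had 5809 reads per library in the first of these classes and 9 in the last.

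The median change declined steadily with rank. On the log2 scale with TMM it was 0.77 for ranks 2 to 10, 0.23 for ranks 11 to 100, 0.05 for the middle ranks, 0.02 for the lower ranks and −0.08 beyond rank 5000. The median over all tested features was 0.00. The pooled SD between libraries of these class medians was 0.04, 0.02, 0.01, 0.01 and 0.02 in the same order. Ranks taken only from the 8 WT and HP8_T1 libraries, which do not enter the comparison, gave 0.77, 0.42, 0.07, 0.01 and −0.09. Ranks from the 8 line 1 libraries gave 0.77, 0.10, 0.03, 0.01 and −0.05. The order of the classes was the same under all 3 rankings.

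**Figure D3:**
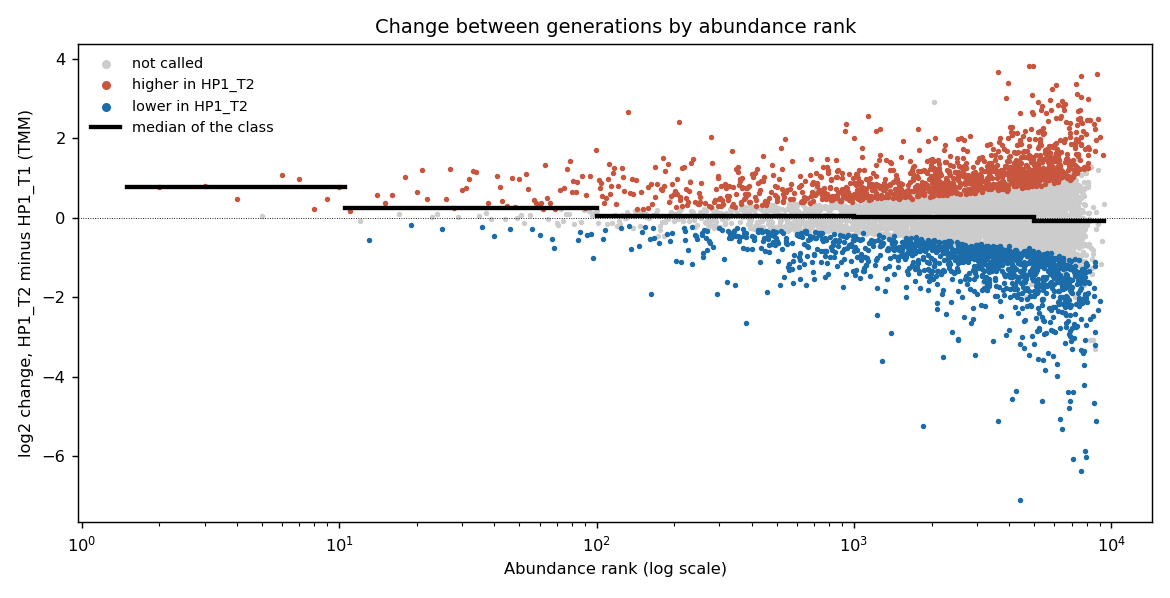
Fitted log2 change from HP1_T1 to HP1_T2 (y axis, TMM scaling) against abundance rank (x axis, log scale) for the tested features other than the most abundant; colours give the edgeR call and black bars the class medians. The medians step down from 0.77 at ranks 2 to 10 to −0.08 beyond rank 5000, and the spread of single features widens with rank.

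The split between higher and lower calls depended on the scale. With totals outside the most abundant feature as the scale, the median of all tested features moved to −0.31, and 616 features were higher and 2294 lower (21.2% of calls higher, against 49.9% with TMM). With library totals the median was −0.37, and 487 were higher and 2389 lower (16.9%). The upper quartile gave 1124 and 1332, with a median of −0.04. DESeq2 size factors gave 1263 and 1199, and totals outside the 100 most abundant features gave 1224 and 1245. A single direction under all 6 scalings was found for 487 higher and 1199 lower features. A scaling moves all features of a library alike, so the distance of a class median from the median of all tested features is nearly fixed whichever scaling is used: ranks 2 to 10 stood 0.76 above that median with TMM, ranks 11 to 100 0.23 above it, and features beyond rank 5000 0.09 below it.

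Ranks 11 to 100 show what the scale decides. With TMM 48 of the 90 features were higher and 15 lower, and with totals outside the most abundant feature 30 were higher and 38 lower. Under all 6 scalings, 23 of the 90 were higher (25.6%) and 15 lower (16.7%), against 6.91% and 17.0% of all tested features. For ranks 2 to 10 these counts were 5 and 0 of 9, for the lower ranks 222 (5.55%) and 643 (16.1%) of 4000.

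**Figure D4:**
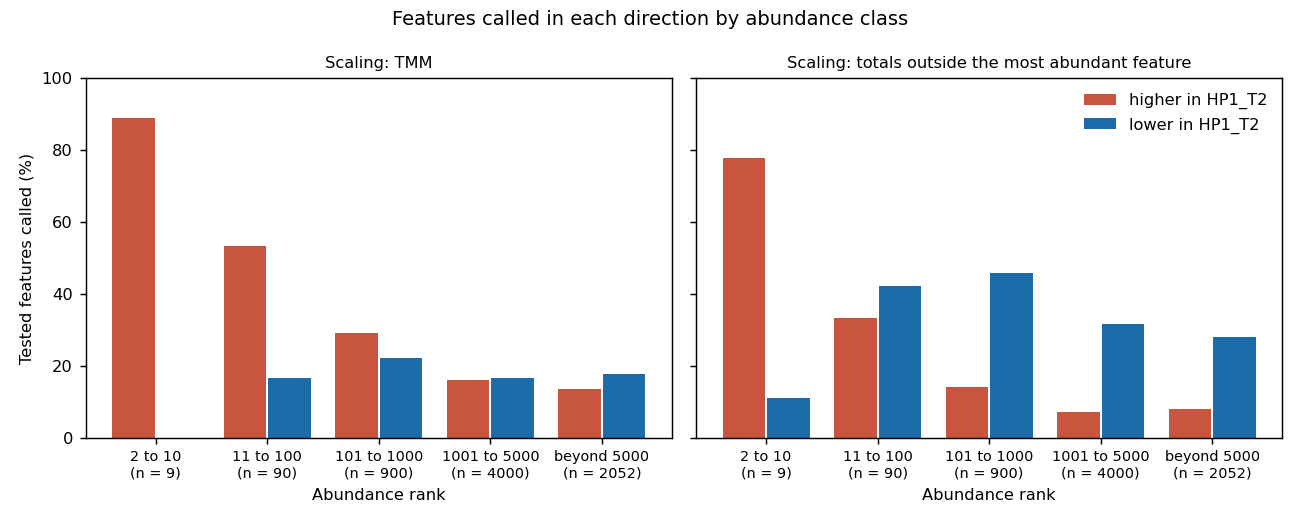
Percent of tested features called higher or lower in HP1_T2 (y axis) in 5 abundance classes (x axis, with the number tested), for TMM scaling (left) and totals outside the most abundant feature (right). With TMM, ranks 11 to 100 have 48 rises and 15 falls, and with the other scale 30 and 38; in both panels the bars for rises shorten from ranks 2 to 10 to the lower ranks.

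Large falls outnumbered large rises with TMM: 599 rises and 718 falls were at least 2-fold, 84 and 152 at least 4-fold, and 13 and 46 at least 8-fold. Rises had a median log2 change of 0.99 and falls one of −1.11, with a median SE of 0.30 over all features. No change of 4-fold or more occurred in either direction among the 99 features ranked 2 to 100. Among the middle ranks there were 5 rises and 1 fall of that size, among the lower ranks 26 and 46, and beyond rank 5000 53 and 105. Most changes of that size thus lay beyond rank 5000, where a feature may have passed the filter only through the group in which it was high. The excess of large falls therefore describes the tested features only, and the part of the filter in it was not tested. Scaling moved these sizes too, and each scaling listed above except DESeq2 size factors placed the median of all features lower than TMM did.

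Reads vanished in HP1_T2 for more features than they appeared in. There were 24 features with at least 5 reads in each HP1_T1 library and 0 in all HP1_T2 libraries. Their reads summed to between 26 and 93 over the 4 HP1_T1 libraries, with a median of 35.5. Of these 24, 23 had a read in HP8_T1, 17 in WT and 19 in C. The opposite arrangement was found for 1 feature, of 884 bases, with 7 to 12 reads per HP1_T2 library. The libraries differed in what 1 read is worth: 0.246 to 0.379 CPM (reads per 1e+06 reads of the TMM-scaled library) in HP1_T1 and 0.385 to 0.459 CPM in HP1_T2. With at least 3 CPM required in every library of one generation and 0 reads in the other, 2 features were found in HP1_T1 only and 0 in HP1_T2 only. The part of this difference in depth in the counts was not tested.

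The 4 features named here had the largest fitted changes among called features whose libraries did not overlap between the generations and whose mean reached 20 reads per library in the generation where they were higher. There were 507 such features that rose and 664 that fell, and non-overlap alone held for 14.7% of tested features in the upward and 15.8% in the downward direction. Passing the test and not overlapping were conditions of this choice and lend it no further support. For each of the 4, too few libraries outside the generation where it was higher reached the minimum of the filter on low counts. Each was thus tested only through that generation, and no p-value is given for it. All reads of these 4 features were unique gene reads.

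Nta#S33540794 (964 bases, rank 3947) had 4, 8, 1 and 2 reads in HP1_T1 replicates 1 to 4 and 21, 33, 27 and 30 in HP1_T2. Every HP1_T2 library was above every HP1_T1 library. Normalised, this was 1.10 ± 0.845 CPM against 11.6 ± 1.57 CPM (SD, n = 4 each), and the fit put the log2 difference at 3.39 (SE 0.36). Without HP1_T1 replicate 2, which holds 8 of its 15 reads there, the log2 difference was 4.003, and without HP1_T1 replicate 3 it was 3.02. The feature had 8.62 ± 2.77 CPM in WT and 0.180 ± 0.212 CPM in HP8_T1, and 1 read over the 4 C libraries. Of the 4 groups with CPM values, WT and HP1_T2 were thus high in it, and HP8_T1 and HP1_T1 were low.

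Nta#S45509444 (679 bases, rank 4974) had 4, 5, 4 and 6 reads in HP1_T1 and 20, 22, 18 and 21 in HP1_T2. Its level was 1.37 ± 0.305 CPM in HP1_T1 and 8.55 ± 0.821 CPM in HP1_T2 (SD, n = 4 each), and the fit put the log2 difference at 2.62 (SE 0.35). Its pattern over the other groups differed from that of Nta#S33540794. WT had 1 read over 4 libraries, HP8_T1 had 4.11 ± 0.856 CPM, and C had 45 reads over 4 libraries, so here HP1_T2 was the highest of the 4 groups with CPM values and WT the lowest.

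Nta#S33577488 (1872 bases, rank 4403) had 18, 16, 30 and 29 reads in the HP1_T1 libraries and 0 in each HP1_T2 library. With HP1_T2 set at the floor of 3 reads over its 4 libraries, it was at least 20.9-fold lower in HP1_T2. Its level was 6.63 ± 1.74 CPM in HP1_T1, 9.98 ± 4.96 CPM in WT and 2.30 ± 0.742 CPM in HP8_T1 (SD, n = 4 each), and C had 23 reads over 4 libraries. Reads of this feature were thus present in each group except the T2 generation.

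Nta#S33530559 (842 bases, rank 6401) had 24, 23, 14 and 24 reads in HP1_T1 and 0, 0, 0 and 1 in HP1_T2. The pooled level was 57.3 times as high in HP1_T1, with a 95% exact interval from 10.003 to 2288 that covers counting error only. Without HP1_T2 replicate 4, which holds that 1 read, the fitted log2 change went from −5.33 to −7.02, a value that then depends on the prior count. Only HP1_T1 had 10 or more reads in any library, so the feature owed its place among those tested to that group, and no p-value is given for it. Its level was 6.32 ± 2.33 CPM in HP1_T1, 2.44 ± 1.13 CPM in WT and 1.37 ± 0.846 CPM in HP8_T1, so HP1_T1 was the highest and HP1_T2 the lowest of these groups in the mean.

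**Figure D5:**
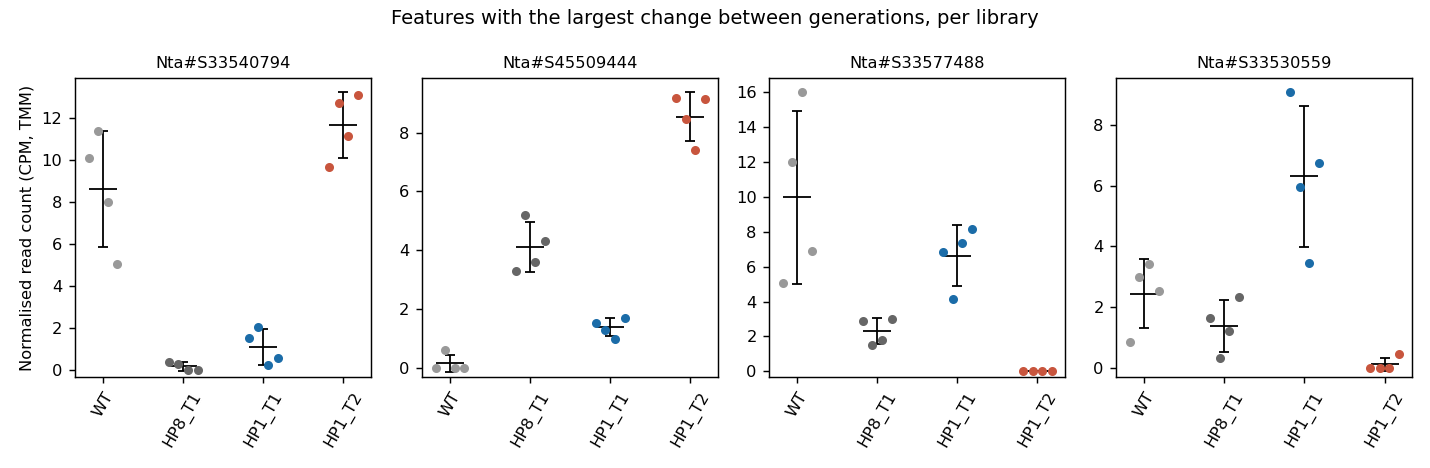
Normalised read count (y axis, CPM with TMM scaling) of the 4 named features (panels) in WT, HP8_T1, HP1_T1 and HP1_T2; points are libraries, and bars are the mean and SD (n = 4). Nta#S33540794 is high in WT and HP1_T2 and near 0 in HP8_T1, and Nta#S33577488 has 0 reads in HP1_T2 alone.

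A comparison that shares no library with the generations, HP8_T1 against WT, was used to see where the changes on selfing fell. In that fit 2120 features were higher in HP8_T1 (30.1%) and 1775 lower (25.2%). Of the 1775 features lower in HP8_T1 than in WT, 450 rose from HP1_T1 to HP1_T2 (25.4%) and 306 fell (17.2%), against 17.5% in each direction over all tested features. Of the 2120 features higher in HP8_T1, 318 rose (15%) and 414 fell (19.5%). The median log2 change between the generations was 0.10 in the first set and −0.06 in the second, small beside the spread of single features, whose middle 50% ran from −0.43 to 0.60 and from −0.53 to 0.42.

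The same split was read by abundance class, with no test between classes. Ranks 2 to 10 allow no contrast: 8 of the 9 features were lower in HP8_T1 than in WT, 0 were higher, and those 8 rose. In ranks 11 to 100, 49 features were lower in HP8_T1 than in WT, and 34 of them rose in HP1_T2 (69.4%) while 4 fell (8.16%); of the 29 that were higher in HP8_T1, 9 rose (31.03%) and 8 fell (27.6%). Over the whole class 53.3% rose and 16.7% fell. In the middle ranks, 145 of 361 lower features rose (40.2%) and 82 fell (22.7%), against 63 (19.3%) and 78 (23.9%) of the 327 higher ones, with 29.0% and 22.1% over the class. In the lower ranks, 218 of 1053 lower features rose (20.7%) and 172 fell (16.3%), against 162 (14.7%) and 210 (19.0%) of the 1105 higher ones, with 15.98% and 16.5% over the class. Beyond rank 5000, 44 of 303 lower features rose (14.5%) and 48 fell (15.8%), against 84 (12.7%) and 118 (17.9%) of the 659 higher ones. Both sets were close to the 13.5% and 17.7% of the class. The same count was made for C against WT in a fit of all 20 libraries. It shares the WT libraries with the comparison of HP8_T1 and the change between generations with it, so it is no separate support. Of 1495 features lower in C than in WT (21%), 385 rose in HP1_T2 (25.8%) and 254 fell (17.0%), and of 1396 higher in C (19.6%), 202 rose (14.5%) and 260 fell (18.6%). Over all 7126 features of that fit, 16.9% rose and 17.4% fell. These are counts over features, which are not replicates, and the sorting of features against WT depends on the scaling as well.

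The distance between the generations of line 1 was of the order of the distance between the lines. HP8_T1 and HP1_T1 differed in 2935 features (41.6% of those tested), 1513 of them at least 2-fold, and the generations in 2471 (35%), 1317 of them at least 2-fold. The SD of the log2 changes over features was 0.91 between lines and 0.89 between generations. Both comparisons use the HP1_T1 libraries, and the difference between them was not tested. The libraries of the generations varied among themselves to a like degree. Their common coefficient of variation, called biological in edgeR, was 8.16% in HP1_T1 and 9.09% in HP1_T2. The labels do not say whether this spread is between plants or technical.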

How the data were processed

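The submitters extracted total RNA with lithium chloride and made libraries with the SOLiD total RNA kit, per the labels' protocols. Aligner, settings and reference release: not given in the sources used here. Per the file headers, the authors deposited raw counts per feature in 2 ways, total gene reads and unique gene reads, with the feature's length in bases; total gene reads are analysed here.

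From these counts, edgeR 4.0.16 in R 4.3.3 fitted all 16 libraries of WT, HP8_T1, HP1_T1 and HP1_T2 (filterByExpr with a minimum count of 10, TMM factors, a group term alone, quasi-likelihood testing, Benjamini-Hochberg threshold 0.05), and HP1_T2 minus HP1_T1 was read. CPM are counts per 1e+06 reads of the TMM-scaled library size. The SE of a log2 change was worked back from its test, as the absolute change divided by the square root of the F statistic. C entered only a fit of all 20 libraries. DESeq2 1.42.0 gave an alternative test. Shares per library were compared by exact permutation (scipy 1.17.1, Python 3.11.15). Intervals and floors cover counting error only.

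The generations, abundance classes and alternatives were chosen with earlier results of these data known. The rule for named features took the 2 largest rises and the 2 largest falls, since identifiers carry no names; gene lists and leaf markers could not be applied.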

Additional observations from a re-analysis of the deposited data

Results flagged for a closer look

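A total of 42 groups of 4 values were examined for a library far from the other 3 (Dixon's test), and chance marks about 1 group in 20. The summed share of ranks 11 to 100 was lowest in HP1_T2 replicate 3, at 13.9% of the remaining reads, with the other 3 libraries between 13.99% and 14.00%. The feature ranked 5 was highest in HP1_T2 replicate 4, at 3.61%, against 3.37% to 3.40% in the others; all 4 lay below every HP1_T1 library. Nta#S33530559 had its 1 read of the T2 generation in HP1_T2 replicate 4, which is 0.435 CPM, and 0 in the other 3 libraries. A single read beside libraries with 0 is always marked by Dixon's test, so this mark was fixed by the counts.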

How the results depend on the processing

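Counts of higher and lower features outside 1.5 times the reported ones came from library totals (487 and 2389), totals outside the most abundant feature (616 and 2294), no filter on low counts (2157 and 2562 of 20197 tested) and a minimum count of 20 (758 and 747 of 3603 tested); the last 2 test more and fewer features by construction. DESeq2 called 1009 and 942, unique gene reads gave 1225 and 1249, and without each library in turn the counts were 1114 to 1234 and 1111 to 1207. The replicate block gave 1258 and 1261. Same-numbered libraries deviated together with correlations of only 0.00752 to 0.0394 over features. Not every library correlated best with its own number, and the numbers were not taken as pairs in the fit. These correlations weigh all tested features alike and do not speak for the abundant ones. The share of the feature ranked 2 had the replicate order 3, 4, 1, 2 from high to low in both generations, and also in WT and HP8_T1. Of the TMM calls, none was called in the opposite direction under any alternative fit.

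Class medians (log2, ranks 2 to 10 first) were 0.39, −0.14, −0.33, −0.36 and −0.46 with library totals and 0.45, −0.086, −0.27, −0.30 and −0.40 with totals outside the most abundant feature. The upper quartile gave 0.19, 0.0046, −0.025 and −0.12 from ranks 11 to 100 on. DESeq2 size factors gave 0.057 and 0.027 for the middle and lower ranks, and unique gene reads 0.030 for the middle ranks. Ranks from line 1 gave 0.095, 0.029 and −0.048 for ranks 11 to 100, the middle ranks and beyond rank 5000; ranks from WT and HP8_T1 gave 0.42 and 0.065 for ranks 11 to 100 and the middle ranks. Without each library in turn the medians were 0.73 to 0.78, 0.224 to 0.278, 0.0422 to 0.0717, 0.0061 to 0.027 and −0.139 to −0.049.

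In the paired permutation within replicate numbers, p was 0.125 for each share, the smallest 4 pairs allow, with unchanged differences of −47.3 features for 50% of the remaining reads and 10.3, −0.957, −3.20, −3.71 and −2.47 percentage points for the 5 classes. Outside the 2 most abundant features, an alternative chosen after seeing the data, the difference for ranks 11 to 100 turned to 0.750 percentage points. With 3 libraries against 4 the shares were compared as values only. Features beyond rank 5000 rest on few reads, and depth limits what can be called there.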

Other observations

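Feature length was set beside the change between generations. The 7052 tested features were sorted into 4 classes of about 25% each by length. In the shortest class, of 112 to 803 bases, 306 features rose in HP1_T2 (17.3%) and 303 fell (17.2%) of 1765, with a median log2 change of 0.00. In the longest class, of 928 to 6090 bases, 366 rose (20.8%) and 325 fell (18.5%) of 1760, with a median of 0.01. The longest features were also the more abundant, with a median rank of 2261 against 4256 in the shortest class. The 2 classes between had medians of −0.02 and 0.01.

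The generations used largely the same abundant features. Of the 100 most abundant features in HP1_T1, 89 were among the 100 most abundant in HP1_T2, and of the 1000 most abundant, 815.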
